A study of Mus musculus with 14 samples.

Results

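Collagens are the main structural proteins of the extracellular matrix, and this account covers the genes that encode their alpha chains in mouse skin cells with an altered p63. The genes were taken by name alone, as every symbol made of Col, a type number, a and a chain number. This gave 44 collagen genes of 27179 genes in the keratinocyte table and the same number of 24411 genes in the epidermis table. They divide by structure into 9 basement membrane, 11 fibrillar, 9 FACIT, 4 transmembrane, 6 beaded filament, 3 short-chain network and 2 other genes. FACIT collagens are fibril-associated collagens with interrupted helices. Positions below are of build GRCm38.p6, from RefSeq.

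A collagen molecule is a helix of 3 alpha chains, which come from 1 gene or from several. Under the epidermis, type IV chains form the sheet of the basement membrane. Type XVII collagen spans the membrane of basal keratinocytes at hemidesmosomes, and type VII collagen forms the fibrils that anchor the basement membrane to the dermis. Most fibrillar collagen of skin is made by dermal fibroblasts.

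The transcription factor p63 is a master regulator of stratified epithelia, and its gene Trp63 encodes several C-terminal endings. The p63alpha group had the genotype Trp63-Ex13fl/fl, in which exon 13 is flanked by recombination sites and kept. The p63beta group was KRT14-Cre; Trp63-Ex13fl/fl, so that Cre under the KRT14 promoter removes the exon in cells that use this promoter, and other cells keep it. All material came from newborn mice. Epidermis had been freed from dermis by trypsin overnight, and the cultured keratinocytes were primary cells grown from such epidermis at low calcium. There were 3 keratinocyte libraries and 4 epidermis libraries per genotype. Whether libraries came from different pups is not stated in the labels. The p-values thus reflect variation among these libraries, part of which may be technical.

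Total counts per library ran from 20688027 to 30066041 in keratinocytes and, as estimates, from 21290068 to 44909629 in epidermis. In epidermis, Trp63 transcript NM_011641, whose annotated match holds exon 13, stood at 37.5 to 107 TPM (a level corrected for transcript length and depth) in p63alpha and at 0 in every p63beta library. A second transcript linked to that match, NM_001127262, stood at 8.01 to 23.6 TPM in p63alpha and 134 to 249.9 TPM in p63beta, so the shared match does not settle which of these transcripts carries the exon. NM_001127264, whose match also holds exon 13, stood at 30.7 to 116 TPM and 6.16 to 19.6 TPM. Keratinocyte counts are per gene and do not check the deletion; Trp63 stood at 179 to 193 CPM in p63alpha and 343 to 390.5 CPM in p63beta. Basal keratinocyte markers (Krt5, Krt14, Trp63 and Itgb4) summed to 21311 to 33822 CPM in keratinocytes and 6049 to 17311 CPM in epidermis, where CPM is a gene's share of all counts on a common scale of library size. Suprabasal markers summed to 9.70 to 38.3 CPM in keratinocytes and to 81358 to 159423 CPM in epidermis. Keratinocyte p63beta library 3 stood apart, with 10 heart and striated muscle markers at a sum of 3187 CPM against at most 208 CPM elsewhere. Results that rest on it are therefore given with and without it. In RNA from many cells at once, fewer cells of a type and less RNA per cell cannot be told apart.

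The first comparison was p63beta against p63alpha in cultured keratinocytes, the setting that the series title names for matrix genes. Collagens had mostly higher fitted values in p63beta, led in abundance by Col17a1, Col18a1, Col4a1 and Col4a2, but no single collagen passed the test. Of 44 genes, 35 had enough counts to be tested, and 23 of these had a positive log2 fold change (65.7%, against 49.7% of all 13820 genes tested). The median log2 fold change was 0.33 over the collagens and -0.0013 over all genes. Between libraries the collagen median had an SD of 0.301, so the difference was close to this spread in size. The same SD was 0.427 for basement membrane, 0.482 for fibrillar and 0.29 for FACIT genes. Without p63beta library 3 the collagen median was 0.12, with 21 of 35 positive.

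Calls rest on edgeR's quasi-likelihood test with a threshold of 0.05 on the p-value adjusted over all genes by the method of Benjamini and Hochberg. By this rule 0 collagens were called, against 0.101% of all genes. At an unadjusted p under 0.05 edgeR had 9 of 35 collagens and 6.85% of all genes. Taking the replicate number as a block also called 0 collagens, against 0.268% of all genes. DESeq2, run on the same counts, called Col14a1, Col18a1 and Col8a1, against 1.45% of all genes. The authors' deposited table passes these 3 genes too, with adjusted p-values of 0.00235, 0.00143 and 0.00143, against 1.5% of its genes. The log2 fold changes in the authors' deposited table are shrunken estimates, drawn toward no change, of 0.89, 0.58 and 0.76. The DESeq2 values on the same counts, not shrunken, were 1.97, 0.65 and 0.97.

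In 9 of 35 collagens every p63beta library lay above every p63alpha library, against 6.51% of all genes. These were Col18a1, Col4a1, Col4a2, Col8a1, Col8a2, Col14a1, Col19a1, Col27a1 and Col5a3. In 0 of 35 did every p63beta library lie below, against 5.8% of all genes. With p63beta library 3 set aside the count above stayed at 9, while the share of all genes rose to 9.18%. Leaving out a library cannot lower such a count, so this is no check on the 9 genes. Some muscle and vessel markers were higher in p63beta too. The 6 pericyte and smooth muscle markers summed to 351 to 573 CPM in p63alpha and 718 to 1122 CPM in p63beta. Nearly all of this was Acta2, and the others of that list overlapped between genotypes. The 8 endothelial markers summed to 9.99 to 14.5 CPM in p63alpha and 20.6 to 51.1 CPM in p63beta. Of these, Pecam1, Egfl7 and Mmrn2 did not overlap, while Cdh5, Kdr, Tek, Emcn and Cldn5 did. The heart and striated muscle sums overlapped, at 104 to 204 CPM in p63alpha and 143 to 3187 CPM in p63beta. The part of these markers in the collagen values was not tested.

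**Figure D1:**
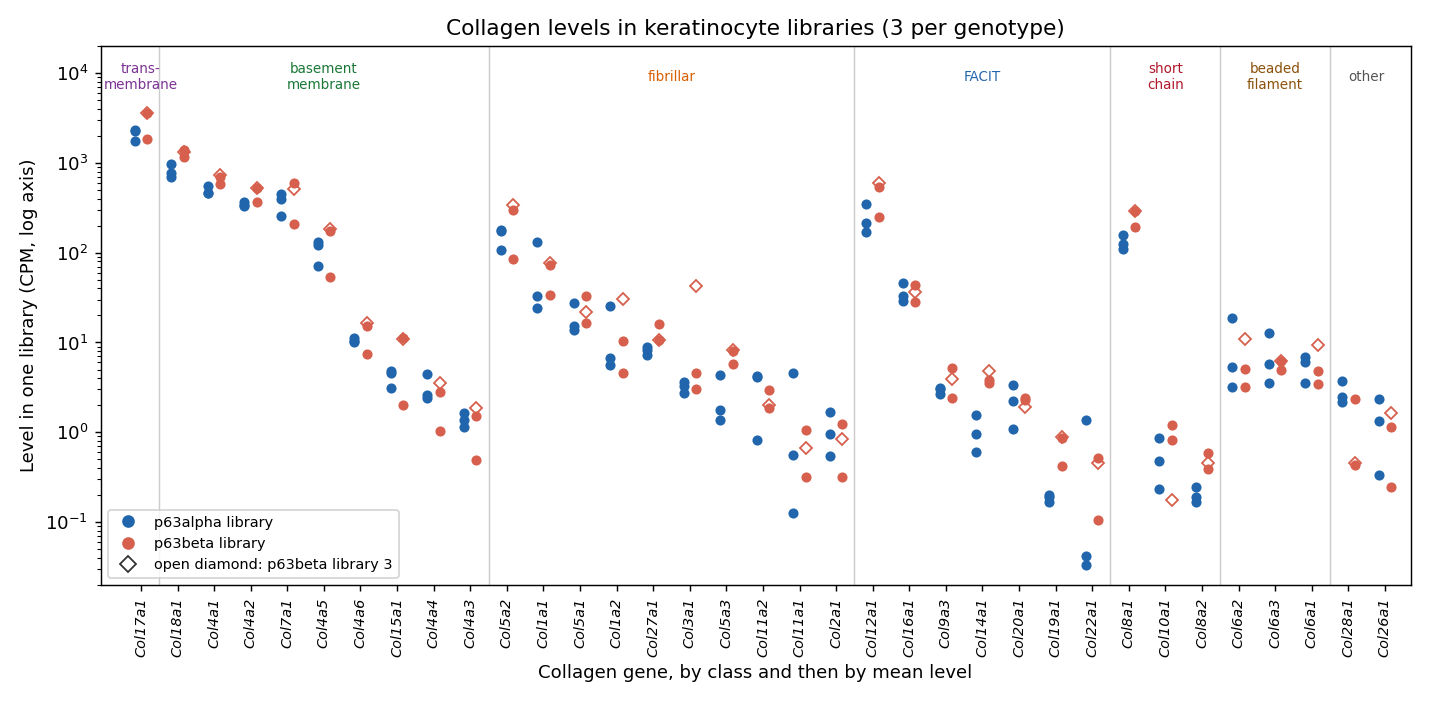
Level of each tested collagen in the 6 keratinocyte libraries, in CPM on a log axis, with p63alpha in blue, p63beta in red and p63beta library 3 as an open diamond. Col17a1 is the highest, between 1742 and 3584 CPM, Col18a1 and Col8a1 have no overlap between genotypes, and the Col3a1 diamond at 42.3 CPM lies far above its other points.

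Promoters are shown for 3 genes that lead their classes by level or by difference: Col18a1 and Col8a1, and Col17a1 as the most abundant collagen. The stretches are from RefSeq's promoter windows (build GRCm38.p6), on the minus strand and read 5′ to 3′, kept to the bases before the first annotated exon, with matches to the motifs searched in capitals.
Col18a1: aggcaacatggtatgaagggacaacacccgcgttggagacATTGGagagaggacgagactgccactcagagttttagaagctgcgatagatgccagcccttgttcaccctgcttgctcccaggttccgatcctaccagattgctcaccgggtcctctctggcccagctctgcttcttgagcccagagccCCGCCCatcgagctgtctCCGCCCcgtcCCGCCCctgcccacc
Col8a1: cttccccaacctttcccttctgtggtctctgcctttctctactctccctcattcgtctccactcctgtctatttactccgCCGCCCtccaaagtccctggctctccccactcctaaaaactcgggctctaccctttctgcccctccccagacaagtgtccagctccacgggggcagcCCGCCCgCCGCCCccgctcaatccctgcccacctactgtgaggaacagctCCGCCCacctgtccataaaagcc
Col17a1: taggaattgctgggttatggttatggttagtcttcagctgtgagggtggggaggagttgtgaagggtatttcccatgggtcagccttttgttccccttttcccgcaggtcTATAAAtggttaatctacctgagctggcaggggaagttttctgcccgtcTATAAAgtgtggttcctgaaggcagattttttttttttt
The Col18a1 stretch is chr10:77166549-77166780, the Col8a1 stretch chr16:57754738-57754987 and the Col17a1 stretch chr19:47692095-47692292. Both strands were searched for 5 motifs. These were the TATA box, written TATAAA, the CCAAT box, the Sp1 motif GGGCGG, the AP-1 motif TGANTCA, and the half-site of the p53 family, to which p63 belongs. Col18a1 held 3 GGGCGG matches and 1 CCAAT match, Col8a1 held 4 GGGCGG matches, and Col17a1 held 2 TATAAA matches. Among all promoter windows of the same lengths, GGGCGG was in 30.1% at 232 bases and 32.7% at 250 bases, CCAAT in 32.4% at 232 bases, and TATAAA in 9.08% at 198 bases. Of 38 collagen windows, 20 held GGGCGG at 232 bases and 22 at 250 bases. CCAAT was in 12 of 38 at 232 bases and TATAAA in 4 of 38 at 198 bases. TGANTCA and the half-site matched in none of the 3 stretches. They matched in 6.39% and 6.65% of all windows at 232 bases, 6.75% and 7.13% at 250 bases, and 5.5% and 5.79% at 198 bases. Of 38 collagen windows they matched in 1 and 3 at each length. A match describes letters, not a bound site.

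Col17a1 (Entrez 12821, chr19:47646341-47692042) encodes type XVII collagen, the hemidesmosome collagen that basal keratinocytes anchor with. Its level was 1742, 2265 and 2334 CPM in p63alpha libraries 1, 2 and 3 and 1830.5, 3584 and 3579 CPM in p63beta libraries 1, 2 and 3. The p63beta libraries 2 and 3 were above all others, and p63beta 1 lay within the p63alpha range. Values below keep this order, with p63alpha first. The fit gave a log2 fold change of 0.50 ± 0.28 (SE, edgeR adjusted p 0.819). Per length, in FPKM (fragments per kilobase on a common scale of depth), it was the highest collagen, at 390.3 ± 65 FPKM in p63alpha and 548 ± 175 FPKM for p63beta (SD, n = 3 each). It carried 41.2% to 51.5% of the summed collagen FPKM in every keratinocyte library. The other transmembrane collagens, Col13a1, Col23a1 and Col25a1, were too low to test. Col13a1 stood at 0.0416, 0.0332 and 1.0 CPM and 0.0354, 0.0793 and 0.105 CPM, so p63alpha 3 was far above the other 5 libraries. Col25a1 was at most 0.424 CPM. Col23a1 was at 0.0831 to 0.133 CPM in p63alpha and 0.198 to 0.385 CPM in p63beta, with no overlap, at 11 counts or fewer per library.

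Among basement membrane collagens, 7 of 9 had positive values, with a median log2 fold change of 0.36 (0.12 without p63beta library 3). Col18a1 (Entrez 12822, chr10:77052178-77166530) encodes type XVIII collagen, a heparan sulfate proteoglycan whose C-terminal fragment is endostatin. Its level was 959, 702 and 769.6 CPM in p63alpha and 1175, 1373 and 1312 CPM in p63beta. The genotypes did not overlap, and p63beta 1 was the lowest of its group while p63alpha 1 was the highest of its own. The means were 810.2 ± 133 and 1287 ± 101 CPM (SD, n = 3 each). The fitted log2 difference was 0.67 ± 0.14 (SE, edgeR adjusted p 0.36). Without p63beta library 3 it was 0.65.

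Col4a1 and Col4a2 encode the chains of the most widespread type IV network. They lie head to head on chromosome 8, with annotated start sites 21 bases apart, at 11312826 on the minus strand and 11312805 on the plus strand (GRCm38.p6). Col4a1 stood at 556, 456 and 462 CPM in p63alpha and 575, 695 and 729 CPM in p63beta. Col4a2 stood at 368, 328 and 342 CPM in p63alpha and 370.3, 519 and 521 CPM in p63beta. Neither overlapped, but the gaps were narrow, since both genes in p63beta 1 were just above p63alpha 1. Their log2 fold changes were 0.44 ± 0.13 and 0.44 ± 0.15 (SE, edgeR adjusted p 0.566 and 0.628). The chain ratio, Col4a1 over Col4a2 in FPKM, was 1.38 ± 0.0804 in p63alpha and 1.39 ± 0.107 for p63beta (SD, n = 3 each), a difference smaller than either SD.

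Col4a5 and Col4a6, whose chains form a second type IV network of the epidermal basement membrane, had log2 fold changes of 0.36 ± 0.48 and 0.33 ± 0.30 (SE, edgeR adjusted p 0.962 and 0.922). Col4a5 stood at 71.8, 131 and 121 CPM in p63alpha and 53.9, 175 and 185 CPM in p63beta. Both library 1 values were the lowest of their genotype, and the genotypes overlapped. The ratio of Col4a5 to Col4a6 in FPKM was 10.5 ± 2.89 in p63alpha and 10.1 ± 2.42 for p63beta (SD, n = 3 each). Col4a3 and Col4a4, the chains known from the glomerulus, stayed at 0.495 to 4.41 CPM and were not called (-0.12 ± 0.51 and -0.35 ± 0.51, SE, edgeR adjusted p 0.987 and 0.966).

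Col7a1, the anchoring fibril collagen, stood at 259, 391 and 454 CPM in p63alpha and 209, 596 and 509 CPM in p63beta. Library 1 was again low in both genotypes, and the fit gave 0.25 ± 0.41 (SE, edgeR adjusted p 0.972). Col15a1, the other multiplexin, stood at 4.86, 3.15 and 4.62 CPM and 11.1, 2.02 and 11 CPM. Its p63beta libraries lay on both sides of the p63alpha values (log2 fold change 0.93 ± 0.62, SE, edgeR adjusted p 0.874).

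Fibrillar collagens form the banded fibres of connective tissue. Of 11 genes, 10 were tested and 6 were positive, with a median log2 fold change of 0.30 that became -0.01 without p63beta library 3. Col5a2, a chain of the type V collagen that nucleates fibrils, was the most abundant. Its levels were 106, 173 and 177 CPM in p63alpha and 85.5, 297 and 337 CPM in p63beta. Libraries 2 and 3 of p63beta were the highest and p63beta 1 the lowest of all 6 (log2 fold change 0.66 ± 0.50, SE, edgeR adjusted p 0.9).

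The chains of type I collagen, the bulk collagen of dermis, differed by library more than by genotype. Col1a1 stood at 24.4, 32.7 and 131 CPM in p63alpha and 33.8, 72.8 and 76.4 CPM in p63beta. The single highest value was p63alpha 3, and the fit gave -0.04 ± 0.69 (SE, edgeR adjusted p 0.997). Col1a2 stood at 5.57, 6.64 and 25.2 CPM and 4.6, 10.4 and 30.1 CPM, high in library 3 of both genotypes (0.27 ± 0.85, SE, edgeR adjusted p 0.983). Without p63beta library 3 the Col1a2 value turned to -0.74. The ratio of Col1a1 to Col1a2 in FPKM was 5.29 ± 0.457 for p63alpha and 6.14 ± 2.92 for p63beta (SD, n = 3 each), a difference smaller than the p63beta SD. It ran from 4.79 to 5.69 in p63alpha, was 2.77 in p63beta library 3 and had a mean of 7.82 in the other p63beta libraries. Both type I genes were positive without p63alpha library 3, Col1a1 at 1.09 and Col1a2 at 1.30.

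Col3a1, the type III collagen of loose connective tissue, had a value that moved with 1 library. It stood at 3.62, 3.25 and 2.76 CPM in p63alpha and at 3.01, 4.6 and 42.3 CPM in p63beta. The log2 fold change of 2.37 ± 1.03 (SE, edgeR adjusted p 0.73) was 0.24 without p63beta library 3. In that library the fibroblast markers Dcn, Lum and Dpt stood at 51.7, 7.85 and 10.9 CPM, against at most 2.69, 0.333 and 0.460 CPM in the other 5. The 10 fibroblast markers summed to 157 CPM there and to 55.2 to 77.8 CPM elsewhere. Of these markers 8 were highest in that library, Fbln1 only barely, at 30.8 CPM against at most 29.0 CPM. Thy1 and Twist2 lay within the range of the other libraries. The part of fibroblast RNA in the Col3a1 value was not tested beyond leaving the library out.

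Fibrillar genes of lower level included 2 without overlap. Col27a1, a fibrillar collagen also known from cartilage, stood at 8.98, 7.20 and 8.18 CPM in p63alpha and 15.9, 10.6 and 10.6 CPM in p63beta, with p63beta 1 the highest (0.61 ± 0.21, SE, edgeR adjusted p 0.627). Col5a3 stood at 4.32, 1.36 and 1.76 CPM and 5.76, 8.04 and 8.34 CPM, with p63alpha 1 well above its group (1.57 ± 0.47, SE, edgeR adjusted p 0.556). Col5a1, the partner chain of Col5a2, was at 13.7 to 32.7 CPM with a log2 fold change of 0.33 ± 0.36. The cartilage chains Col2a1, Col11a1 and Col11a2 stayed at or under 4.52 CPM, with log2 fold changes of -0.40 ± 0.62, -1.33 ± 1.20 and -0.41 ± 0.61 (SE). Col11a1 was at 4.52 CPM in p63alpha library 3, and its value was 0.95 without that library. None of these 4 was called by edgeR (adjusted p 0.923 to 0.969). Col24a1 had at most 1 count in a library and was not tested.

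FACIT collagens sit on the surface of fibrils. In keratinocytes 7 of 9 were tested and 5 were positive, with a median log2 fold change of 0.40 (0.38 without p63beta library 3). Col12a1, the most abundant, stood at 349, 169 and 216 CPM in p63alpha and 251, 544 and 597 CPM in p63beta. Libraries 2 and 3 of p63beta were above all others and p63beta 1 was below p63alpha 1 (log2 fold change 0.92 ± 0.40, SE, edgeR adjusted p 0.73). Col16a1 stood at 28.6, 32.9 and 45.6 CPM and 27.9, 43.1 and 36.2 CPM, with overlap (0.00 ± 0.23, SE, edgeR adjusted p 0.9999).

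Col14a1 (Entrez 12818, chr15:55307644-55520803) had, with Col19a1, the largest ratio among collagens without overlap. It encodes a FACIT of dense connective tissue and was named after its values were seen. Its levels were low, 0.956, 0.597 and 1.57 CPM in p63alpha and 3.54, 3.84 and 4.76 CPM in p63beta. Every p63beta library was more than 2-fold above the highest p63alpha library. The fit gave a log2 fold change of 1.96 ± 0.41 (SE, edgeR adjusted p 0.342), and 1.82 without p63beta library 3. With the replicate block it was 2.04 ± 0.32 (SE, edgeR adjusted p 0.113), the lowest blocked adjusted p of any collagen.

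Col19a1 stood at 0.166 to 0.199 CPM in p63alpha and 0.424 to 0.876 CPM in p63beta (1.94 ± 0.44, SE, edgeR adjusted p 0.385). These rest on 4 to 25 counts per library. Col9a3, Col20a1 and Col22a1 stayed at or under 5.19 CPM, with log2 fold changes of 0.40 ± 0.32, -0.01 ± 0.44 and -0.39 ± 1.35 (SE), none called by edgeR (adjusted p 0.907 to 0.997). The Col22a1 value was 3.12 without p63alpha library 3. Col9a2 was too low to test. Col9a1 had 0 counts in all 6 libraries, which allows up to 0.0998 to 0.145 CPM by counting error.

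Short-chain collagens form hexagonal lattices. Col8a1 (Entrez 12837, chr16:57624256-57754737), a chain of the type VIII collagen of vessel walls and Descemet's membrane, stood at 156, 111 and 126 CPM in p63alpha and 191, 289.7 and 294 CPM in p63beta. There was no overlap, and p63beta 2 and 3 were far above p63beta 1. The means were 131 ± 22.7 and 258 ± 58.3 CPM (SD, n = 3 each), with a log2 fold change of 0.98 ± 0.21 (SE, edgeR adjusted p 0.351) and 0.87 without p63beta library 3. Its partner chain Col8a2 stood at 0.166 to 0.249 CPM in p63alpha and 0.389 to 0.594 CPM in p63beta (1.23 ± 0.39, SE, edgeR adjusted p 0.59). Col10a1, the collagen of hypertrophic cartilage, stood at 0.873, 0.232 and 0.476 CPM and 1.20, 0.832 and 0.175 CPM (0.49 ± 0.78, SE, edgeR adjusted p 0.971).

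The beaded filament collagens, the type VI microfibrils, were low in keratinocytes and had a median log2 fold change of -0.33 over 3 tested genes. Col6a2 stood at 5.4, 3.22 and 18.8 CPM in p63alpha and 5.13, 3.21 and 11 CPM in p63beta. Library 3 was the highest of each genotype (-0.50 ± 0.75, SE, edgeR adjusted p 0.969), and the value was 0.59 without p63alpha library 3. Col6a3 stood at 12.6, 5.74 and 3.57 CPM and 6.22, 4.99 and 6.20 CPM (-0.33 ± 0.46, SE, edgeR adjusted p 0.962). Col6a1 stood at 3.41 to 9.49 CPM over all 6 libraries (0.12 ± 0.44, SE, edgeR adjusted p 0.985), and its value turned to -0.41 without p63beta library 3. Col6a4, Col6a5 and Col6a6 were too low to test. Col6a6 had 0.771 CPM in p63beta library 3 and at most 0.0354 CPM elsewhere.

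Of the remaining collagens, Col28a1 stood at 2.49, 2.19 and 3.76 CPM in p63alpha and 2.37, 0.436 and 0.455 CPM in p63beta (-1.36 ± 0.73, SE, edgeR adjusted p 0.808). Its p63beta libraries 2 and 3 were below all p63alpha libraries and p63beta 1 was within their range. Col26a1 stood at 0.333, 2.32 and 1.33 CPM and 0.248, 1.15 and 1.65 CPM (-0.40 ± 0.86, SE, edgeR adjusted p 0.974).

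**Figure D2:**
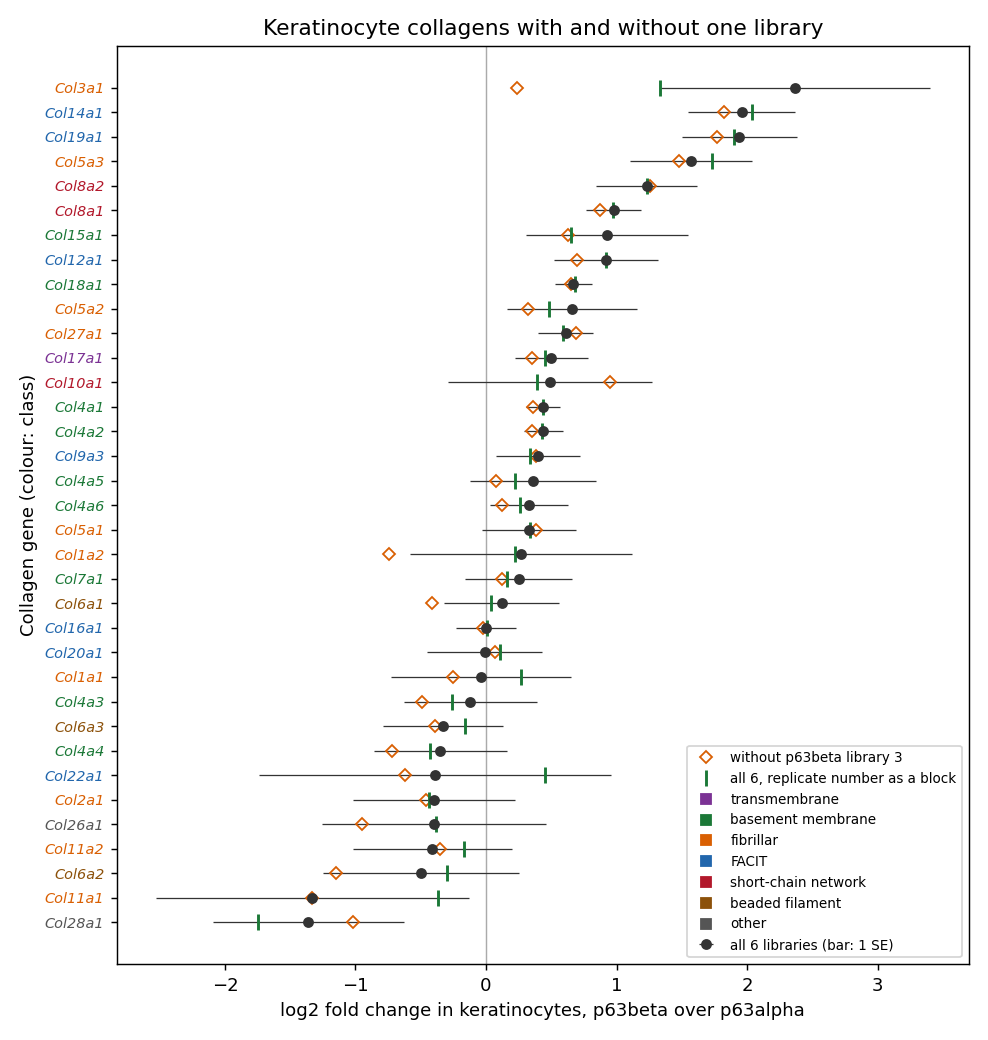
Fitted log2 fold change of each tested collagen in keratinocytes, with all 6 libraries (black, bar 1 SE), without p63beta library 3 (orange diamond) and with a term for replicate number (green tick), and gene names coloured by class. Col3a1 moves from 2.37 to 0.24 without that library, while Col14a1 moves from 1.96 to 1.82, Col18a1 from 0.67 to 0.65 and Col8a1 from 0.98 to 0.87.

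Libraries of like replicate number were also compared as pairs, though the data bear out the pairing only weakly at number 3. Within pair 1, 18 of 35 collagens were higher in p63beta, with a median log2 ratio of 0.01. Within pair 2, 28 were higher, with a median of 0.56, and within pair 3, 25, with a median of 0.47. Basement membrane collagens were higher in 4 of 9 cases in pair 1, in 8 of 9 in pair 2 and in 9 of 9 in pair 3. In all 3 pairs 11 collagens were higher in p63beta (17.6% of all genes were) and 2 were lower, Col28a1 and Col6a2 (19.3% of all genes were). Col6a2 in pair 2 was nearly level, with a ratio of 0.997. The 11 were the 9 without overlap together with Col17a1 and Col5a1. A gene without overlap and higher in p63beta is higher in every pair by definition, so the 9 are not a second result. Library p63alpha 3 also weighed on the class values: without it the fibrillar and FACIT medians were 0.87 and 0.85. Other signs turned on 1 library too: Col6a3 was 0.30 without p63alpha 1, Col26a1 0.29 without p63alpha 2, Col7a1 -0.04 without p63beta 2 and Col10a1 -0.07 without p63beta 1.

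Summed over all 44 genes, collagens reached 759.6, 812 and 899 FPKM in p63alpha libraries 1, 2 and 3. The same sum was 839, 1353 and 1346 FPKM in p63beta libraries 1, 2 and 3. Libraries 2 and 3 of p63beta were above the rest, and p63beta 1 lay within the p63alpha range. The basement membrane genes summed to 328 ± 18.9 FPKM in p63alpha and 466 ± 65.9 FPKM in p63beta. Fibrillar genes summed to 44.2 ± 19.6 and 60.8 ± 28.2 FPKM, and FACIT genes to 29.7 ± 6.97 and 49.0 ± 16.7 FPKM (SD, n = 3 each).

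The second comparison was p63beta against p63alpha in epidermis itself. Collagens there showed no common direction: Col17a1, Col4a1 and Col4a2 had somewhat higher fitted values in p63beta, while the type VI chains, Col1a2, Col14a1 and Col16a1 had lower ones. Of 44 genes 29 were tested, and 13 of them were positive (44.8%, against 49.3% of all 13796 genes). The median log2 fold change was -0.07 over the collagens and -0.0039 over all genes. By edgeR 0 collagens were called, against 0.232% of all genes. At an unadjusted p under 0.05 edgeR had 4 of 29, against 4.64% of all genes, and DESeq2 called 0, against 0.945% of all genes. The authors' deposited table also passes 0 collagens, against 0.896% of its genes.

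In 0 of 29 collagens did every p63beta library lie above every p63alpha library, against 1.88% of all genes. In 0 of 29 did every p63beta library lie below, against 1.19% of all genes. Column names put EP07 to EP12 in 1 series of libraries, 3 per genotype, and WT3 and KO2 in another, 1 per genotype. Library WT3 was the lowest of all 8 for 11 of 29 collagens and EP09 the highest for 14, both p63alpha. Among EP07 to EP12 alone the collagen median was -0.32, with 8 of 29 positive, and with the library series as a term in the fit it was -0.13. Summed melanocyte markers were higher in p63beta: the 6 markers summed to 114 to 249 CPM in p63alpha and 306 to 450.4 CPM in p63beta. Singly, Dct, Tyrp1 and Mlana did not overlap between genotypes, while Tyr, Pmel and Mitf did. The sums of 10 fibroblast markers, mostly Postn, Dcn and Fbln1, overlapped, at 479 to 593 CPM and 323 to 518 CPM. Their part in the collagen values was not tested.

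**Figure D3:**
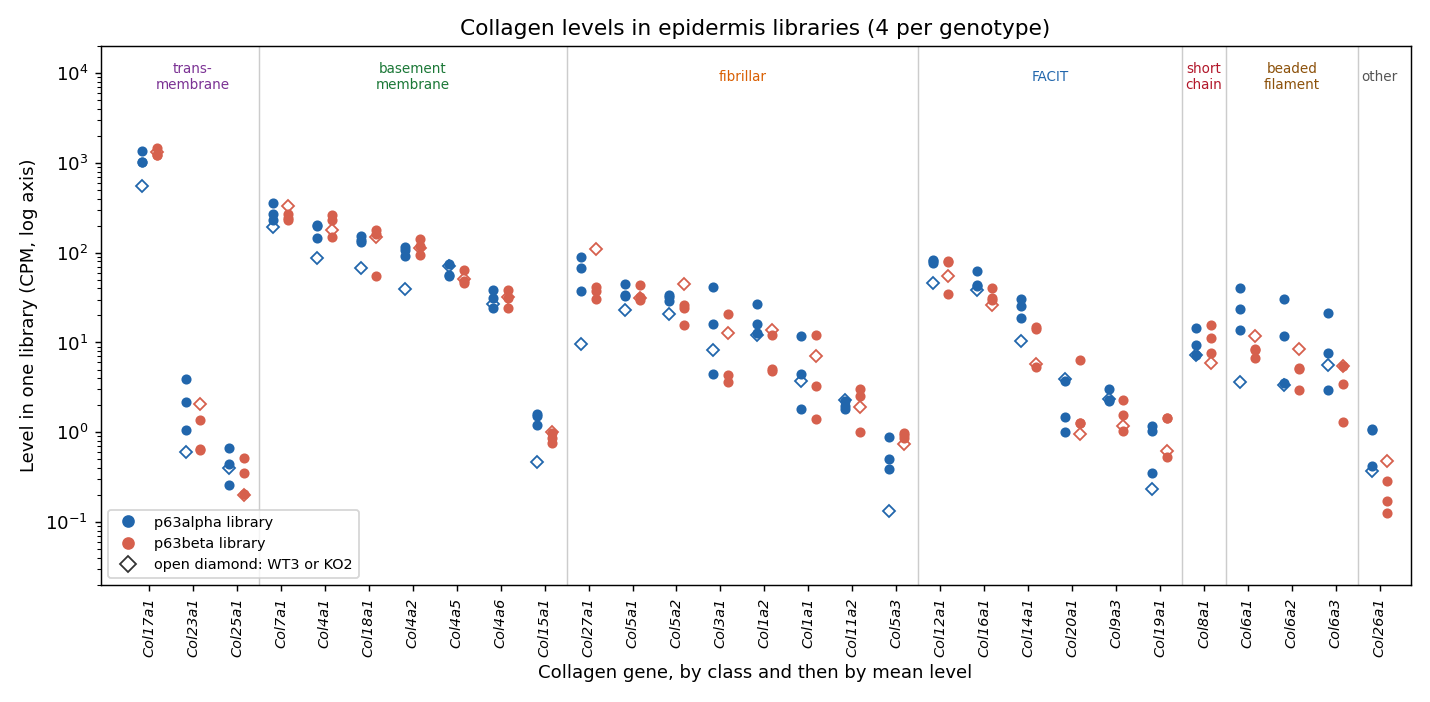
Level of each tested collagen in the 8 epidermis libraries, in CPM on a log axis, with p63alpha in blue, p63beta in red and the libraries WT3 and KO2 as open diamonds. Every collagen overlaps between genotypes, Col17a1 is the highest at 552 to 1446 CPM, and the blue diamond of WT3 is often the lowest point.

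Col17a1 was again the most abundant collagen. It stood at 1029, 1025, 1346 and 552 CPM in the p63alpha libraries EP07, EP08, EP09 and WT3. It stood at 1208, 1446, 1221 and 1308 CPM in the p63beta libraries EP10, EP11, EP12 and KO2, and this order of libraries holds below. Only EP09 of the p63alpha libraries reached the p63beta range (log2 fold change 0.39 ± 0.25, SE, edgeR adjusted p 0.9999). Without WT3 the log2 fold change was 0.19. Col17a1 carried 50.6% to 54.5% of the summed collagen TPM in p63alpha and 57.6% to 63.3% in p63beta. Col23a1 stood at 2.15, 1.06, 3.92 and 0.601 CPM and 0.651, 0.636, 1.38 and 2.07 CPM (-0.69 ± 0.62, SE, edgeR adjusted p 0.9999). The transmembrane median was -0.48, with 1 of 3 positive. Col25a1 stayed under 1 CPM (-0.48 ± 0.51, SE, edgeR adjusted p 0.9999), and Col13a1 was too low to test.

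Basement membrane collagens had 5 of 7 tested genes positive, with a median log2 fold change of 0.06. Among EP07 to EP12 alone 2 of 7 were positive, with a median of -0.10. Col7a1 stood at 231, 269.9, 361 and 191 CPM in p63alpha and 229.8, 240.2, 270.0 and 328 CPM in p63beta (0.02 ± 0.21, SE, edgeR adjusted p 0.9999). Col4a1 stood at 196, 203, 146 and 88.1 CPM and 229.9, 262, 149 and 178 CPM (0.37 ± 0.27, SE, edgeR adjusted p 0.9999). Col4a2 followed it, at 108, 117, 91.7 and 39.9 CPM and 119, 141, 93.1 and 112 CPM (0.38 ± 0.29, SE, edgeR adjusted p 0.9999). The low WT3 value widened both differences: without that library their log2 fold changes were 0.17 and 0.14. The ratio of Col4a1 to Col4a2 in TPM was 1.78 ± 0.258 in p63alpha and 1.69 ± 0.169 for p63beta (SD, n = 4 each).

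Col18a1 stood at 139.7, 153, 133 and 67.1 CPM in p63alpha and 163, 181, 55.6 and 148 CPM in p63beta. WT3 and EP12 were low, 1 in each genotype, and the fit gave 0.15 ± 0.35 (SE, edgeR adjusted p 0.9999), with -0.05 without WT3 and 0.41 without EP12. Col4a5, Col4a6 and Col15a1 had log2 fold changes of -0.29 ± 0.17, 0.06 ± 0.20 and -0.42 ± 0.43 (SE, edgeR adjusted p 0.9999 each). The ratio of Col4a5 to Col4a6 in TPM was 2.24 ± 0.392 in p63alpha and 1.74 ± 0.140 for p63beta (SD, n = 4 each). Col15a1 stood at 1.62, 1.22, 1.52 and 0.468 CPM and 0.977, 0.763, 0.865 and 0.997 CPM. Col4a3 and Col4a4 were too low to test.

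Fibrillar collagens had 8 tested genes, 5 of them positive, with a median log2 fold change of 0.04. Among EP07 to EP12 alone 2 were positive, and the median was -0.32. Col27a1 was the most abundant by CPM, at 37.8, 67.0, 89.3 and 9.52 CPM in p63alpha and 37.3, 41.8, 30.6 and 109 CPM in p63beta. KO2 was the highest and WT3 the lowest of all 8, with a log2 ratio of 3.44 between them. The fit gave 0.10 ± 0.63 (SE, edgeR adjusted p 0.9999) with all libraries and -0.48 without KO2. Col5a1 stood at 32.7, 33.9, 45.3 and 22.9 CPM and 44.0, 32.4, 29.9 and 31.2 CPM (0.03 ± 0.22, SE, edgeR adjusted p 0.9999).

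Col1a2 was among the 4 collagens with an unadjusted p under 0.05, the others being Col14a1, Col16a1 and Col26a1. It stood at 16.1, 12.6, 27.1 and 12 CPM in p63alpha and 5.13, 4.83, 12.2 and 13.7 CPM in p63beta. EP10 and EP11 were the lowest libraries, and the others overlapped (-0.91 ± 0.40, SE, edgeR adjusted p 0.9999). Col1a1 and Col3a1 had log2 fold changes of 0.13 ± 0.68 and -0.77 ± 0.75, and Col5a2, Col11a2 and Col5a3 of -0.07 ± 0.30, 0.05 ± 0.37 and 0.90 ± 0.52 (SE). None was called by edgeR (adjusted p 0.9999 each). Without EP12 Col1a1 was at -0.47 and Col5a2 at 0.13, and without EP09 Col3a1 was at 0.10. Type I and III chains had their highest p63alpha value in EP09, at 11.8 CPM for Col1a1, 27.1 CPM for Col1a2 and 41.4 CPM for Col3a1. Col2a1, Col11a1 and Col24a1 were too low to test.

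FACIT collagens had 1 of 6 tested genes positive, with a median log2 fold change of -0.38. Col12a1 stood at 77.5, 80.2, 82.4 and 46.1 CPM in p63alpha and 80.2, 77.8, 34.9 and 54.5 CPM in p63beta (-0.21 ± 0.28, SE, edgeR adjusted p 0.9999). Col16a1 stood at 43.4, 42.9, 63.2 and 38.2 CPM and 40.3, 31.2, 29.9 and 26.4 CPM. Among the p63beta libraries EP10 alone reached above the lowest p63alpha value (-0.55 ± 0.20, SE, edgeR adjusted p 0.851).

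Col14a1 stood at 30.3, 18.5, 25.8 and 10.3 CPM in p63alpha and 14.1, 14.9, 5.37 and 5.78 CPM in p63beta. Its order was the opposite of that in culture: the 3 highest libraries were p63alpha, and the 2 lowest were p63beta (-1.08 ± 0.42, SE, edgeR adjusted p 0.907). Col9a3, Col19a1 and Col20a1 had log2 fold changes of -0.71 ± 0.34, 0.52 ± 0.60 and -0.04 ± 0.68 (SE, edgeR adjusted p 0.9999 each). The Col20a1 value was -1.13 without EP12, its highest library. Col9a1, Col9a2 and Col22a1 were too low to test.

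The type VI chains had a median log2 fold change of -1.20 over 3 genes, lower than that of the other classes with more than 1 tested gene. Col6a1 stood at 23.6, 13.6, 40.7 and 3.61 CPM in p63alpha and 8.22, 8.39, 6.79 and 11.9 CPM in p63beta. Col6a2 stood at 11.7, 3.54, 30.6 and 3.37 CPM and 5.01, 2.96, 5.19 and 8.53 CPM. Both were highest in EP09 and lowest or near it in WT3, which are both p63alpha, so the genotypes overlapped. Log2 fold changes were -1.20 ± 0.56 for Col6a1, -1.18 ± 0.67 for Col6a2 and -1.26 ± 0.61 for Col6a3 (SE, edgeR adjusted p 0.9999 each). Without EP09 they were -0.62, -0.20 and -0.47. Col6a4 and Col6a5 had 0 counts in all 8 libraries, which allows up to 0.0668 to 0.141 CPM by counting error, and Col6a6 was too low to test.

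Col8a1, which led the short-chain genes in culture, stood at 9.32, 14.4, 7.34 and 7.35 CPM in p63alpha and 15.8, 11.2, 7.70 and 5.93 CPM in p63beta, with full overlap (0.08 ± 0.34, SE, edgeR adjusted p 0.9999). Col8a2 and Col10a1 were at most 0.338 and 0.0588 CPM and were not tested. Col26a1 stood at 1.09, 0.418, 1.05 and 0.368 CPM in p63alpha and 0.285, 0.127, 0.173 and 0.474 CPM in p63beta. Of its p63beta libraries, EP10, EP11 and EP12 were below all p63alpha libraries (-1.42 ± 0.58, SE, edgeR adjusted p 0.986). Col28a1 was too low to test.

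The third comparison asked whether the p63beta effect differed between epidermis and keratinocytes. It was tested as an interaction in 1 joint edgeR fit of 14 libraries over the genes of both tables, in which 37 collagens were tested. The keratinocyte and epidermis counts were made in different ways, so only differences within each table enter the effect. By edgeR 0 collagens were called, against 0.0% of all 14734 genes. At an unadjusted p under 0.05 edgeR had 5 of 37, against 4.19% of all genes. The effect was smaller or more negative in epidermis for 32 of 37 collagens (86.5%, against 48.7% of all genes), with a median difference of -0.67, against 0.0103 over all genes. Without keratinocyte p63beta library 3 it was so for 29 of 38, with a median of -0.48.

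Col14a1 had the lowest interaction p of the collagens, with a difference of -3.04 ± 0.64 (SE, unadjusted p 3.33e-04, edgeR adjusted p 0.491). Leaving out any 1 library gave adjusted p-values of 0.412 or more. The others were Col12a1 at -1.12 ± 0.49, Col9a3 at -1.1 ± 0.48, Col23a1 at -2.20 ± 0.97 and Col3a1 at -3.11 ± 1.33 (SE, edgeR adjusted p 0.99999 each). For Col3a1 the value was -0.99 without keratinocyte p63beta library 3. For Col4a1, Col4a2 and Col17a1 the differences were -0.05 ± 0.36, -0.04 ± 0.39 and -0.10 ± 0.39, each smaller than its SE, and the same genes were positive in both comparisons. Without the low library WT3 their epidermis log2 fold changes fell to 0.17, 0.14 and 0.19. For Col18a1 and Col8a1 the differences were -0.50 ± 0.47 and -0.89 ± 0.43 (SE, edgeR adjusted p 0.99999 each).

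Of 27 collagens tested in both kinds of sample, 11 had a positive log2 fold change in both and 4 a negative one in both. Another 10 were positive in keratinocytes and negative in epidermis, and 2 were the reverse. Col16a1, whose keratinocyte value rounds to 0.00, is counted as positive there. In keratinocytes alone 8 collagens were tested, in epidermis alone 2, and in neither 7.

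**Figure D4:**
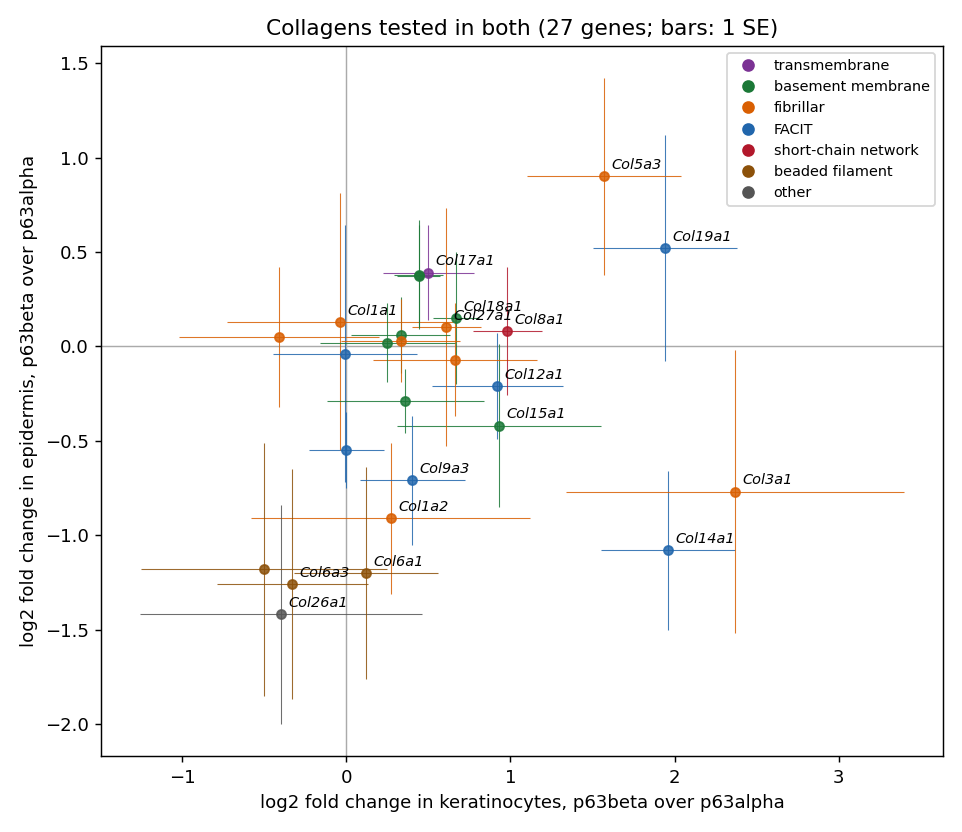
Log2 fold change of p63beta over p63alpha in keratinocytes (horizontal) and in epidermis (vertical) for 27 collagens, coloured by class, with bars of 1 SE. Col14a1 sits at 1.96 and -1.08, the type VI genes at -0.50 to 0.12 and -1.26 to -1.18, and Col17a1, Col4a1 and Col4a2 at 0.44 to 0.50 and 0.37 to 0.39.

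The epidermis files also hold transcript estimates, which allow a test of transcript use. The table lists 54 transcripts of collagens, and 9 genes have more than 1. A gene entered when its mean was at least 1 TPM and at least 2 of its transcripts held 5% or more, which left Col18a1, Col17a1, Col4a5 and Col6a3. For each gene the share of 1 transcript was set against all 70 ways to split the 8 libraries (exact permutation, two-sided). The smallest p this allows is 0.0286. After adjustment over the 4 genes a single gene at that p would have 0.114, so the test could not call 1 gene alone.

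Col18a1 has transcripts from 2 start sites that lie 52843 bases apart on chromosome 10. NM_009929 starts at 77166548 and NM_001109991 at 77113705, with coding sequences of 1315 and 1527 residues in the GENCODE annotation (GRCm38). The promoter printed above is that of the upstream start. NM_009929 stood at 6.56, 10.7, 9.20 and 2.94 TPM in p63alpha and 19.5, 17.2, 0.575 and 24.9 TPM in p63beta. EP10, EP11 and KO2 were above every p63alpha library, and EP12 was below all of them. The internal start, NM_001109991, carried 81.4% ± 2.60 of the Col18a1 TPM in the p63alpha libraries, against 65.1% ± 25.7 for p63beta (SD, n = 4 each). The exact permutation p was 0.286, or 0.571 after adjustment.

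**Figure D5:**
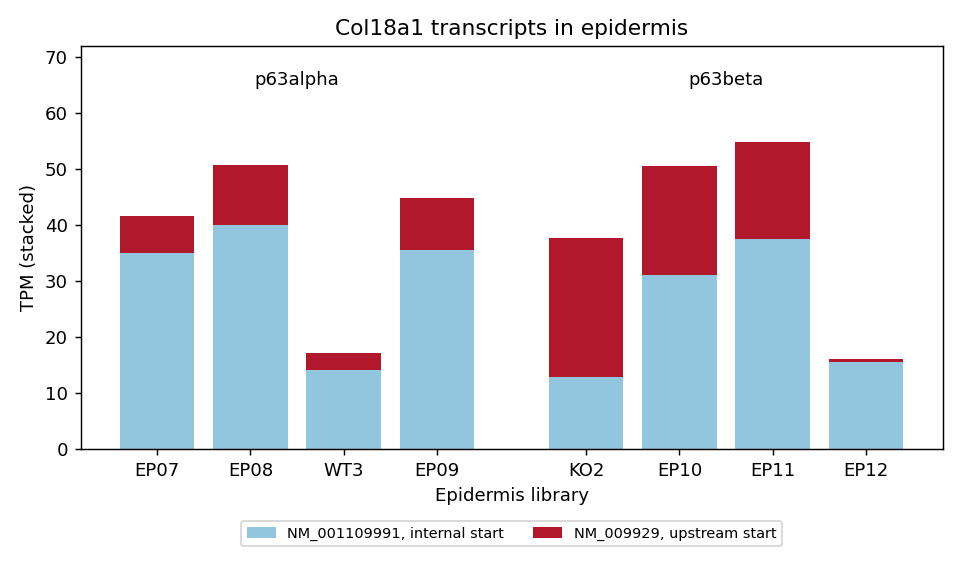
Estimated TPM of both Col18a1 transcripts in each epidermis library, stacked, with the internal start in blue and the upstream start in red. The upstream start holds 2.94 to 10.7 TPM in p63alpha and 0.575 to 24.9 TPM in p63beta.

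For Col4a5, NM_001163155 carried 77.8% ± 10.8 of the gene's TPM in p63alpha, against 61.9% ± 11.7 for p63beta (SD, n = 4 each). The exact permutation p was 0.0857, or 0.343 after adjustment. Its level was 8.58, 13.3, 17.7 and 12.8 TPM in p63alpha and 7.18, 8.54, 7.70 and 7.25 TPM in p63beta. The levels barely failed to overlap, with EP07 at 8.58 TPM and EP11 at 8.54 TPM. This was seen only after the shares were tested, and the share of all transcripts without overlap was not computed. The other Col4a5 transcript, NM_007736, was at 2.57 to 5.34 TPM and 3.06 to 8.54 TPM, and both are annotated with the same coding length of 1691 residues. Col17a1 transcript NM_001290825 carried 67.5% ± 6.65 and 71.9% ± 7.72 (exact permutation p 0.486, adjusted 0.648). Col6a3 transcript NM_001243008 carried 33.1% ± 9.45 and 35.7% ± 43.3 (exact permutation p 1.0, adjusted 1.0), all with SD and n = 4.

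Genes that fold, process and bind collagen were taken as 3 lists. In keratinocytes 13 of 21 tested biosynthesis genes were positive (median log2 fold change 0.15), as were 8 of 12 genes of procollagen processing and crosslinking (median 0.29) and 6 of 9 receptors (median 0.07), against 49.7% of all genes. In epidermis the same lists had 15 of 20, 6 of 9 and 2 of 9 positive, with medians of 0.22, 0.22 and -0.31, against 49.3% of all genes. By edgeR 0 genes of these lists were called in either kind of sample, against 0.101% of all genes in keratinocytes and 0.232% in epidermis. At an unadjusted p under 0.05 edgeR had 3, 1 and 0 genes of the lists in keratinocytes, where 6.85% of all genes had one, and 1, 2 and 0 in epidermis, against 4.64%. DESeq2 called P4ha1, a prolyl 4-hydroxylase subunit, and Crtap, a partner of prolyl 3-hydroxylase, in keratinocytes, against 1.45% of all genes, and 0 in epidermis, against 0.945%. The most abundant biosynthesis gene, P4hb, a subunit of prolyl 4-hydroxylase, stood at 1086 ± 292 and 1110.3 ± 155 CPM in keratinocytes (SD, n = 3 each). Sparc, a collagen-binding matrix protein, stood at 527 ± 11.4 and 517 ± 88.8 CPM.

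Bmp1, the protease that removes procollagen C-propeptides, stood at 98.1 ± 22.8 and 151 ± 15.2 CPM in keratinocytes (log2 fold change 0.62 ± 0.18, SE, edgeR adjusted p 0.5342). Tll1, its relative, stood at 30.1 ± 6.66 and 43.3 ± 12.8 CPM. The receptor genes Itgb1 and Ddr1 had log2 fold changes of 0.18 ± 0.26 and -0.18 ± 0.18. In epidermis the log2 fold changes were 0.26 ± 0.19 for P4hb, 0.16 ± 0.16 for Ppib, -0.24 ± 0.17 for Bmp1 and 0.53 ± 0.17 for Adamts14. They were -0.31 ± 0.17 for Ddr1 and 0.02 ± 0.31 for Itgb1 (SE, edgeR adjusted p 0.677 or more). Without p63beta library 3 the keratinocyte medians of the 3 lists were 0.15, -0.07 and 0.09.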

How the data were processed

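Libraries were made with a stranded mRNA kit, per the labels' protocols. For keratinocytes the authors deposited counts per RefSeq gene, made with featureCounts 1.5.2 (strand setting 2, minimum overlap 25 bases, both ends mapped) per the file headers, and FPKM values. The epidermis tables hold expected counts and TPM per gene and per transcript, as the authors deposited them. Result tables deposited by the authors list log2 fold changes with adjusted p-values, and 14 per-library columns of normalised values in them were not used. The submitters' processing notes name build mm10, STAR, Subread and DESeq2 for all libraries and Salmon for epidermis. Versions of STAR and Salmon are not given in the sources used here.

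Collagens were matched by symbol, through Entrez IDs for keratinocytes, and 35 of 44 matched a RefSeq promoter. Keratinocytes and epidermis had separate models in edgeR 4.0.16 (R 4.3.3): expected counts rounded, TMM normalisation, filterByExpr by group, robust quasi-likelihood F test, Benjamini-Hochberg over all genes. Log2 fold changes are p63beta over p63alpha. The joint fit used 23386 genes matched by Entrez ID. The edgeR steps were also run on simulated counts without replicate pairs or library series, so that run does not show how the test behaves with these. Alternatives used DESeq2 1.42.0 and limma 3.58.1, with pseudocounts of 1 and 0.1 for the latter. Pair ratios add 0.5 CPM to each value.

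The labels give both keratinocyte genotypes replicate numbers 1 to 3. Deviations from group means correlated at 0.587, 0.511 and 0.193 within the numbers 1, 2 and 3 (12629 genes), so the numbers were taken to pair the samples. Different numbers gave -0.527 to 0.178. The highest of these were 0.178 for p63alpha 2 with p63beta 3 and 0.177 for p63alpha 3 with p63beta 2. Pairing at number 3 was thus hardly set apart from unlike numbers. Deviations from a group mean balance out within the group, so these correlations are not independent. The main calls do not use the pairing.

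Every tested collagen is named. Values by library are given for collagens without overlap and at least 5 CPM in a genotype and for the 2 highest of each class. For this rule the type IV, anchoring fibril and multiplexin genes of the basement membrane counted as separate classes. Col14a1, Col3a1, Col1a2 and, in keratinocytes, Col4a5 are shown beyond that rule, picked with their values in view. The members, classes and lists were chosen with earlier results of these data known. Intervals and floors cover counting error only.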

Additional observations from a re-analysis of the deposited data

Results flagged for a closer look

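In 6 of 66 groups of 4 epidermis libraries (9.09%), 1 library lay far from the other 3 for a collagen level or transcript share. The measure was the gap to the nearest other library over the whole range, set against Dixon's 95% critical value for groups of 4, which chance passes in about 5% of groups. Among p63alpha libraries, WT3 had 46.1 CPM of Col12a1 against 77.5 to 82.4 CPM in the others, and EP09 had 3.0 CPM of Col9a3 against 2.26 to 2.37 CPM. Among p63beta libraries, KO2 had 109 CPM of Col27a1 against 30.6 to 41.8 CPM, and EP12 had 6.45 CPM of Col20a1 against 0.947 to 1.27 CPM. The Col4a5 transcript NM_001163155 carried 61.6% of its gene in p63alpha library EP07 and 82.9% to 83.5% in the others. The Col6a3 transcript NM_001243008 carried 100.0% in p63beta library EP11 and 6.37% to 20.2% in the others, in a gene of low level. Groups of 3 keratinocyte libraries were not looked at in this way.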

How the results depend on the processing

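The count of 0 collagens called in keratinocytes became 3 with DESeq2 (211 calls over all genes, against 14 with edgeR). It was 0 with RLE size factors, no filter, no robust estimation, limma on FPKM, the replicate block and any 1 library left out. The counts for epidermis and for the difference were 0 under every alternative run. The keratinocyte median was 0.34 with the replicate block and 0.29 when the block was used on pairs 1 and 2. The block changed no call of a collagen. Leaving out 1 library gave keratinocyte medians of 0.12 to 0.53 over all collagens, -0.01 to 0.87 for fibrillar, 0.12 to 0.85 for FACIT and 0.35 to 1.06 for transmembrane collagens, the high values being those without p63alpha library 3 (fibrillar, FACIT) or p63beta library 2 (transmembrane, with more genes tested). The FACIT median was 0.07 with limma on log2(FPKM + 1). The epidermis median was -0.40 to -0.01 with 1 library left out, the lowest without EP12. In sign, 18 of 35 keratinocyte collagens were positive and 1 negative in every alternative, and 5 and 13 of 29 in epidermis. No paired analysis was possible for epidermis because its columns carry no replicate numbers of the labels. Collagens with few counts, such as Col19a1, Col8a2 and Col22a1, limit what can be said of their classes. Causes of these shifts were not tested. The fit with the library series as a term and the fit of EP07 to EP12 were chosen after seeing the data.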
